A study of Mus musculus with 6 samples.

Results

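The IGHV1 genes, also known as the J558 family, form the largest family of mouse immunoglobulin heavy chain variable (V) genes. Here 46 of them were examined: every IGHV1 gene that was the best V match of at least 1 heavy chain clonotype, apart from IGHV1-26, IGHV1-61, IGHV1-62-3, IGHV1-72 and IGHV1-53. They were 46 of the 51 IGHV1 genes and of the 105 heavy V genes observed. They accounted for 1929 of 7794 heavy chain clonotypes from an iB-μMT mouse and for 3232 of 6781 from a C57BL/6 (B6) mouse. A clonotype was a distinct rearranged sequence of complementarity-determining region 3 (CDR3), the junction that reads across V, diversity (D) and joining (J) genes.

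The libraries were made from 100000 naive follicular B cells sorted from the spleen of 1 mouse each, gated on surface markers that included IgD++, IgM+, CD23++ and CD21+. The iB-μMT mouse was a B6.129S2-Ighmtm1Cgn/J (μMT) recipient, a strain whose disrupted IgM heavy chain gene blocks its own B cell development. It was 8 to 10 weeks old at irradiation with 5 Gy, received 5000000 induced hematopoietic progenitor cells (iHPCs), drank water with doxycycline at 1 mg/mL and was sampled at week 4 after transplantation. The iHPCs came from a selected embryonic stem cell line on a C57BL/6 background with doxycycline-inducible Runx1, Hoxa9 and Lhx2 at Rosa26 and GFP at Hipp11, so all B cells of this mouse traced to 1 engineered line. The B6 mouse was not transplanted, and its age is not given in the sources used here. With 1 library per group, the mouse, the library and the origin of the B cells cannot be told apart, so no p-value is given and every interval covers counting error only. The tables hold no expression of the sorting markers. Of the clonotypes with an assigned constant gene, 1875 of 1878 (iB-μMT) and 3180 of 3183 (B6) carried IGHM, the constant gene of IgM, and the other 3 in each carried IGHG1.

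A heavy chain gene is assembled in a developing B cell by joining a D to a J gene and then a V gene to that DJ unit. Nucleases trim the ends, and terminal deoxynucleotidyl transferase (TdT) can add nucleotides that no germline gene encodes. The IGHV1 genes lie mostly in the middle and distal parts of the V cluster, away from the D genes, and rearrangement of such genes is known to need contraction of the locus.

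The CDR3 sequences of the 5 member clonotypes with the most reads in each mouse are printed from 5′ to 3′, because they let the joined V, D and J ends and the nucleotides inserted between them be read directly. Capitals mark nucleotides between the aligned V and D ends or between the aligned D and J ends. In the fourth iB-μMT clonotype no D gene was assigned, and its junction is left in lower case.
iB-μMT, IGHV1-52 IGHD2-3 IGHJ2: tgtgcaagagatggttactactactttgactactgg
iB-μMT, IGHV1-64 IGHD2-8 IGHJ2: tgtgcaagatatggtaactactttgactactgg
iB-μMT, IGHV1-85 IGHD2-3 IGHJ4: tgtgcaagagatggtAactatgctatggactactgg
iB-μMT, IGHV1-82 IGHJ2: tgtgcaagaggggactttgactactgg
iB-μMT, IGHV1-78 IGHD1-1 IGHJ4: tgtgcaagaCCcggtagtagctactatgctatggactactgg
B6, IGHV1-49 IGHD1-1 IGHJ2: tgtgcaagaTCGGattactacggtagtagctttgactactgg
B6, IGHV1-52 IGHD1-1 IGHJ1: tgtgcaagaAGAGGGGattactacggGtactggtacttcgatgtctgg
B6, IGHV1-66 IGHD2-4 IGHJ3: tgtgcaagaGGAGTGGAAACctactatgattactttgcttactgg
B6, IGHV1-15 IGHD1-1 IGHJ1: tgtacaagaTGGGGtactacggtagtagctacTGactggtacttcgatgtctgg
B6, IGHV1-50 IGHD2-8 IGHJ3: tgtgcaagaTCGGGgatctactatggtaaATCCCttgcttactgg

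These clonotypes held between 553 and 755 reads (iB-μMT) and between 969 and 1558 reads (B6). The largest iB-μMT one, IGHV1-52 with IGHD2-3 and IGHJ2, made up 0.083% of its heavy chain reads. In it and in the IGHV1-64 clonotype the V, D and J ends met without any inserted nucleotide, and the 5 B6 sequences carried 4 inserted nucleotides or more. Being only the 5 largest of each library, they illustrate the junctions and do not stand for all of them, which are counted further on.

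The depth was 909806 heavy chain reads in the iB-μMT library and 1383617 in the B6 library, with a median of 96 and 184 reads per clonotype. At this depth, a gene without any clonotype in a library may still hold a share of up to 0.0385% in the iB-μMT library and 0.0442% in the B6 library, which is the share of 3 clonotypes. The tables count reads without molecular identifiers, and reads are not independent molecules. Shares were therefore counted over clonotypes, and read shares are given for some of the values.

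All of these IGHV1 genes together held a smaller share of the repertoire in the iB-μMT library than in the B6 library. They made up 24.7% of its clonotypes (95% Wilson interval 23.8 to 25.7%), against 47.7% (46.5 to 48.9%) in the B6 library. The ratio of the shares was 0.519, with an interval of 0.496 to 0.544. By reads, the shares were 29.5% and 51.5% and the ratio was 0.573. The shares of all V genes sum to 100% in each library, so a lower share here goes with a higher share elsewhere. The IGHV2 and IGHV5 families, which lie nearest to the D genes, held 39.9% of clonotypes in the iB-μMT library and 15.1% in the B6 library. The 5 IGHV1 genes that were set aside had a ratio of 0.432 (0.385 to 0.486). Of these, IGHV1-72 alone was higher, at 2.56 (1.71 to 3.81), and the other ratios ran from 0.131 for IGHV1-61 to 0.575 for IGHV1-53. The IGHV8 genes, which lie among the distal IGHV1 genes, had a ratio of 0.833 (0.708 to 0.981), and by reads 0.989. Within the IGHV1 family, the 46 genes made up 83.1% of the clonotypes (81.5 to 84.5%) in the iB-μMT library and 80.3% (79.1 to 81.5%) in the B6 library.

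In the plot of clonotype shares in locus order, the same genes were prominent in both libraries. IGHV1-64 ranked first in each, with 170 clonotypes (2.18%) in the iB-μMT library and 258 (3.8%) in the B6 library. Next in the iB-μMT library were IGHV1-15 with 99 clonotypes, IGHV1-81 with 97 and IGHV1-52 with 91. Next in the B6 library were IGHV1-80 with 188, IGHV1-50 with 185 and IGHV1-55 with 168. The order below IGHV1-64 is not resolved in either library, because the Wilson intervals of these neighbours overlap. IGHV1-15, IGHV1-50, IGHV1-55, IGHV1-64, IGHV1-69 and IGHV1-82 were among the 8 most frequent member genes of both libraries. Over the 35 genes with at least 20 clonotypes in both libraries together, the shares in the libraries correlated with a Spearman rho of 0.877 and a Pearson r of 0.891. This is a description across genes of 2 libraries that share a mapping reference, and the genes are not independent replicates.

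**Figure D1:**
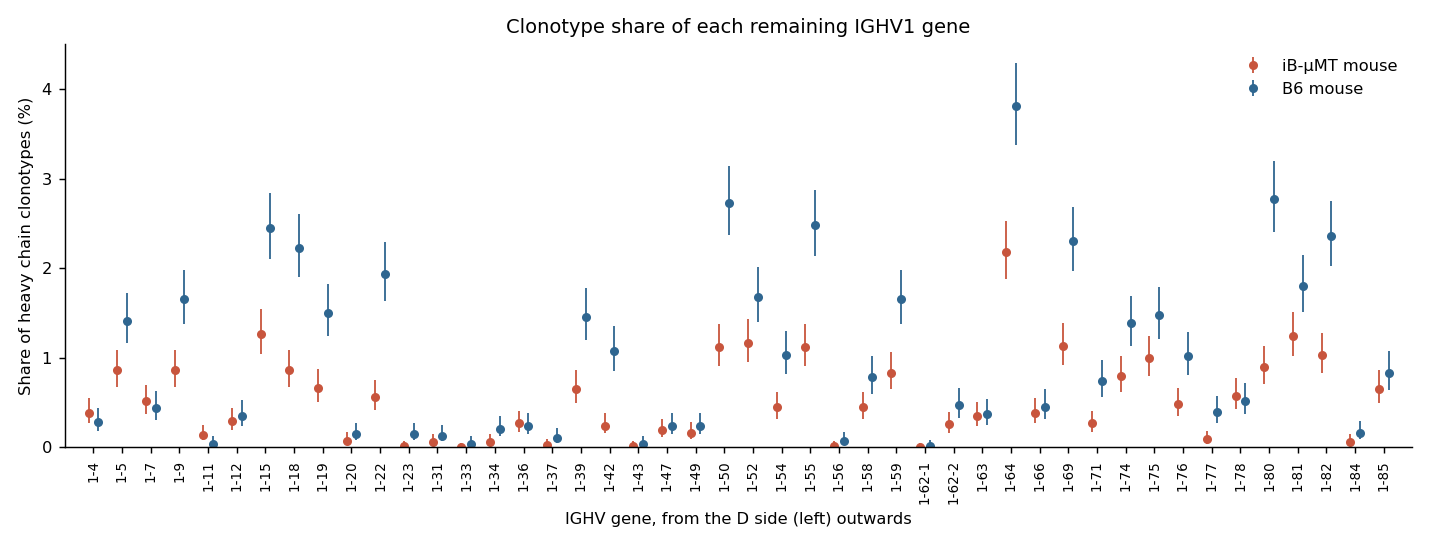
Share of heavy chain clonotypes (%) for each of the 46 IGHV1 genes, ordered from the D side outwards, in the iB-μMT library (1929 clonotypes) and the B6 library (3232 clonotypes), with 95% Wilson intervals. IGHV1-64 was highest in both libraries, and most points of the iB-μMT library lie below those of the B6 library.

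The lower share was spread over many of the genes. Of the 35 genes compared, 14 had a share at least 2-fold lower in the iB-μMT library, where 22.1% of all 77 heavy V genes compared did. None was at least 2-fold higher, where 16.9% of all heavy V genes were. The interval of the ratio lay below 1 for 25 genes, included 1 for 10 and lay above 1 for 0, while 37.7% and 26% of all heavy V genes lay below and above 1. The median ratio over the 35 genes was 0.544, against 0.921 over all 77 and 1.35 over the 42 genes that were not members. By reads the median ratio of the 35 genes was 0.608.

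The lowest ratios belonged to genes at different places in the cluster. IGHV1-77 had 7 clonotypes in the iB-μMT library and 27 in the B6 library, a ratio of 0.226 with a wide interval of 0.0983 to 0.518. By reads its ratio was 0.434, so its estimate rests on few clonotypes. IGHV1-42 had the same ratio, 0.226, from 19 and 73 clonotypes, with a narrower interval of 0.137 to 0.375. IGHV1-22 had 44 and 131 clonotypes and a ratio of 0.292 (0.208 to 0.411). IGHV1-80, the second most frequent member gene of the B6 library, had 70 and 188 clonotypes and a ratio of 0.324 (0.247 to 0.425). The intervals of these genes overlap one another. The next lowest ratios were 0.365 for IGHV1-71 and 0.386 for IGHV1-18, with 21 and 50 clonotypes and 67 and 151 clonotypes.

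At the other end, 4 genes had a ratio above 1, and all of their intervals included 1. IGHV1-4, the member gene nearest to the D genes, had 30 clonotypes in the iB-μMT library and 19 in the B6 library, a ratio of 1.37 (0.774 to 2.44). IGHV1-7 had 40 and 30 clonotypes and a ratio of 1.16 (0.723 to 1.86). IGHV1-36 had a ratio of 1.14 from 21 and 16 clonotypes, and IGHV1-78 had a ratio of 1.12 from 45 and 35 clonotypes. By reads the ratios of these 4 genes, in the order given, were 1.75, 1.58, 1.69 and 1.13. The clonotype share of these genes was therefore not shown to differ between the libraries in either direction. Next came IGHV1-63 with a ratio of 0.94 and IGHV1-66 with 0.842, both with intervals that include 1. By reads IGHV1-63 stood at 0.785 and IGHV1-66 at 1.17. All of these were sparsely used genes in the B6 library, where the largest of the 6, IGHV1-78, held 0.516% of clonotypes.

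Of the most frequent genes of either library, IGHV1-80 and IGHV1-18 were among the lowest ratios given above, and the others had higher ones. IGHV1-64 had a ratio of 0.573 (0.474 to 0.694), IGHV1-15 of 0.519 and IGHV1-69 of 0.491. IGHV1-55 stood at 0.451, IGHV1-82 at 0.435 and IGHV1-50 at 0.409. IGHV1-52 and IGHV1-81 had higher ratios, of 0.694 (0.528 to 0.913) and 0.692 (0.531 to 0.901). Across the 35 genes the log2 ratio correlated with the B6 share with a Spearman rho of -0.564, and both of these measures contain the B6 value.

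**Figure D2:**
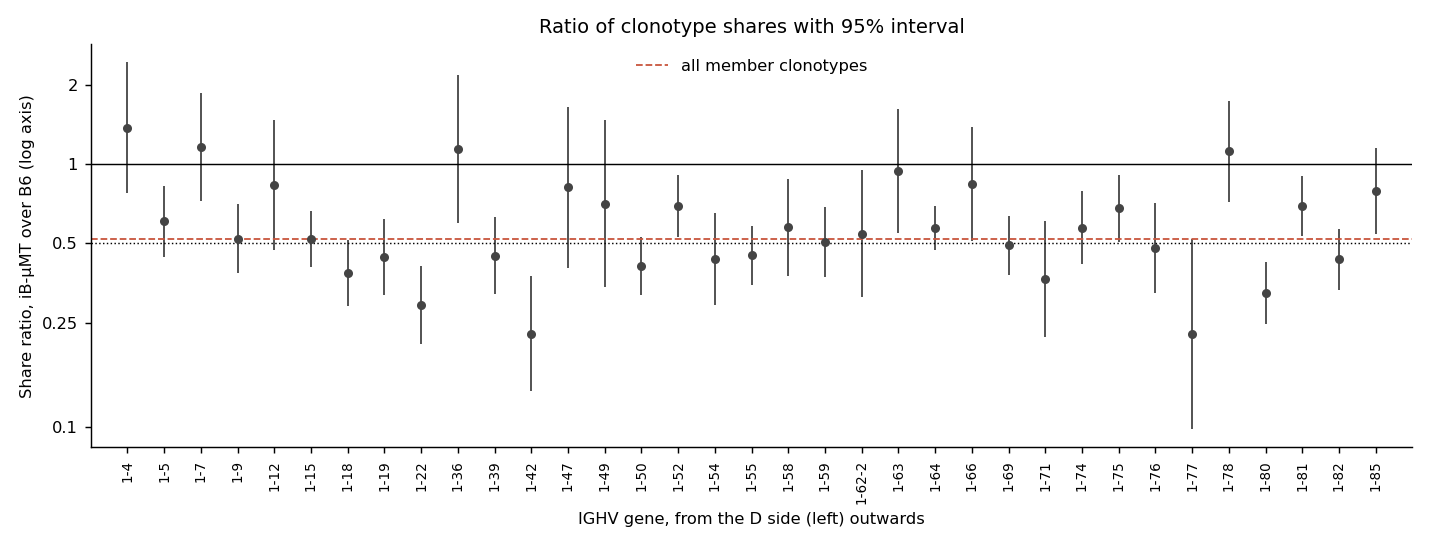
Ratio of clonotype shares (iB-μMT over B6, log axis) with 95% Katz intervals for the 35 IGHV1 genes with at least 20 clonotypes, in locus order, with solid and dotted lines at equal shares and at a 2-fold lower share and a dashed line at the ratio of all member clonotypes, 0.519. Ratios run from 0.226 for IGHV1-77 and IGHV1-42 to 1.37 for IGHV1-4, and low and high values are mixed along the locus.

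When each gene was taken as a share of the member clonotypes alone, the lower share common to the set no longer entered the ratio. On this scale IGHV1-4 took a 2.65 times larger share in the iB-μMT library (1.49 to 4.69), IGHV1-7 a 2.23 times larger share (1.40 to 3.57), IGHV1-36 a 2.20 times larger share (1.15 to 4.2) and IGHV1-78 a 2.15 times larger share (1.39 to 3.34). The shares of IGHV1-77 (0.434, interval 0.19 to 0.996), IGHV1-42 (0.436, interval 0.264 to 0.72), IGHV1-22 (0.563, 0.402 to 0.788) and IGHV1-80 (0.624, 0.477 to 0.816) were smaller. IGHV1-64 and IGHV1-15, had ratios of 1.10 and 0.999 on this scale, with intervals that included 1. These genes were picked for the extremes of the same ratio, so the values describe the spread among members.

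The ratios had no clear order along the chromosome. All 46 genes had an entry on chromosome 12 of the mouse GRCm38.p6 assembly in RefSeq, 45 as V gene segments and IGHV1-33 as a V segment pseudogene, and a higher gene number meant a position farther from the D and J genes. IGHV1-4 lies at chr12:114487136-114487429, and IGHV1-82, almost at the far end, at chr12:115952538-115952831, whereas IGHJ1 lies at chr12:113429781-113429833. Genes numbered 1 to 30 together held 6.51% of clonotypes in the iB-μMT library and 12.6% in the B6 library, a ratio of 0.517 (0.465 to 0.574). For genes numbered 31 to 60 the ratio was 0.482 (0.435 to 0.533), and for those numbered 61 and above it was 0.547 (0.506 to 0.591). The 3 intervals overlap. Genes at least 2-fold lower were found in each stretch: 3 of 9 compared, 5 of 11 and 6 of 15. The Spearman rho of gene order with the log2 ratio was -0.14 over the 35 genes, and 0.163 over the 29 genes with at least 50 clonotypes.

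The 11 genes with fewer than 20 clonotypes in both libraries together were not compared one by one. Of these, IGHV1-11 had 11 clonotypes in the iB-μMT library and 3 in the B6 library, a pattern opposite to that of IGHV1-23 with 1 and 10. Both were picked out after their values were seen. IGHV1-33 and IGHV1-62-1 were found in the B6 library alone, with 3 clonotypes (0.0442%) and 1 clonotype (0.0147%). The first share lies just above and the second below the 0.0385% that a count of 0 in the iB-μMT library allows. The IGHV1-62-1 clonotype had 4 reads and a stop codon. The IGHV1-33 clonotypes had 469, 164 and 1 reads, and their exported CDR3 began 11 residues before the cysteine that normally opens a CDR3. Their alignments therefore gave 41 to 45 inserted nucleotides, and leaving them out changed the B6 mean given next from 6.48 to 6.44.

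Member junctions carried fewer inserted nucleotides in the iB-μMT library. Its clonotypes with an assigned D gene had 4.38 inserted nucleotides on average (SD 3.04, n = 1687 clonotypes), against 6.48 (SD 3.97, n = 2861) in the B6 library. The difference was -2.10 nucleotides, with a 95% interval over clonotypes of -2.31 to -1.90. At the V to D junction the means were 3.10 and 4.11, and at the D to J junction they were 1.28 and 2.37. Both junctions contributed, by -1.02 and -1.08 nucleotides. In the iB-μMT library 52.4% of the member clonotypes had no insertion between D and J, against 28.8% in the B6 library. Neither junction had an insertion in 138 of 1687 clonotypes (8.18%) of the iB-μMT library and in 91 of 2861 (3.18%) of the B6 library, a difference of 5.0 percentage points (Newcombe interval 3.59 to 6.52).

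The lower insertion number held gene by gene. All 34 member genes with at least 10 such clonotypes in each library had fewer insertions on the iB-μMT side, where 98.6% of the 73 heavy V genes examined did, so the direction was shared with nearly all other V genes. The differences ran from -3.30 for IGHV1-85 to -0.756 for IGHV1-7, with a median of -1.92. Gene means lay between 2.67 (IGHV1-49, SD 2.96, n = 12) and 5.34 (IGHV1-50, SD 3.48, n = 70) in the iB-μMT library. In the B6 library they lay between 3.93 (IGHV1-49, SD 1.21, n = 14) and 8.06 (IGHV1-36, SD 4.17, n = 16). IGHV1-49 was lowest in both. Of the 39 other heavy V genes examined, 38 had fewer insertions on the iB-μMT side, with a median difference of -2.08.

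The difference was close along the locus and ran over a wider range by partner gene. It was -2.15, -2.05 and -2.10 nucleotides for genes numbered 1 to 30, 31 to 60 and 61 and above. By D gene it ran from -2.74 with IGHD2-5 (-3.53 to -1.95) to -1.11 with IGHD3-1 (-2.20 to -0.0145). These are the extremes of the D genes, the second from 41 and 82 clonotypes, and their intervals overlap. By J gene it ran from -2.62 with IGHJ4 (-3.02 to -2.22) to -1.83 with IGHJ2 (-2.20 to -1.47). The intervals with IGHJ4 and IGHJ2 do not overlap, and the difference between them was not tested. For the other heavy V genes the difference between the libraries was -1.95, and the member difference departed from it by -0.148 (-0.407 to 0.111), an interval that includes 0. At the V to D junction alone the departure was -0.24 (-0.445 to -0.035). In the B6 library the members had 0.211 more V to D insertions than the other V genes (0.0579 to 0.364), and in the iB-μMT library the corresponding value was -0.0293 (-0.166 to 0.107). Against the IGHV8 genes the V to D departure was -0.616 (-1.05 to -0.177). Against the 5 IGHV1 genes set aside it was -0.0889 (-0.48 to 0.302) and against the IGHV2 and IGHV5 genes -0.0594 (-0.34 to 0.221), and both of these intervals include 0.

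**Figure D3:**
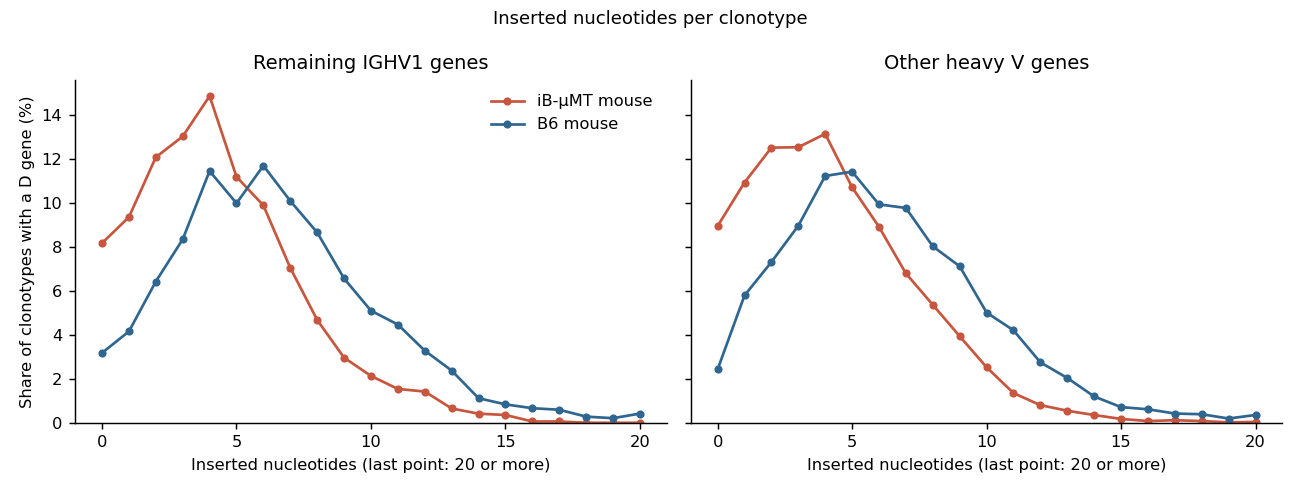
Share of clonotypes with an assigned D gene (%) by number of inserted nucleotides (both junctions, last point 20 or more) in the iB-μMT and B6 libraries, for the 46 IGHV1 genes on the left and all other heavy V genes on the right. The iB-μMT curves are shifted to lower numbers in both panels, with means of 4.38 against 6.48 for the IGHV1 genes and 4.30 against 6.25 for the others.

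Trimming of the germline ends was lower on the J side in the iB-μMT library. The V end had lost 0.575 nucleotides on average there and 0.576 in the B6 library (difference interval -0.0724 to 0.0707), and 76.2% and 74.8% of clonotypes kept the whole V end. The J start had lost 2.43 and 3.29 nucleotides, a difference of -0.865 (-1.04 to -0.692). The stretch assigned to D was 10.7 and 11 nucleotides long. The other heavy V genes had a J difference of -0.908, close to that of the members, and a V difference of -0.207 (-0.263 to -0.15). The departure of the members' V difference was 0.0764 (-0.0709 to 0.224) from the 5 IGHV1 genes set aside, 0.113 (-0.219 to 0.446) from IGHV8 and 0.0907 (-0.0114 to 0.193) from IGHV2 and IGHV5. These 3 intervals include 0, whereas that of the departure from all other heavy V genes, 0.206 (0.115 to 0.297), does not. In the B6 library the members' V loss differed from that of the other V genes by -0.224 (-0.289 to -0.16). In the iB-μMT library it differed by -0.0181 (-0.0826 to 0.0464).

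The CDR3 of the members was also slightly shorter in the iB-μMT library, at 13.5 amino acids (SD 2.41) against 13.9 (SD 2.74). The difference was -0.441 (-0.584 to -0.298), and 23 of the 29 genes that reached 20 clonotypes in each library had a shorter mean in the iB-μMT library, where 75.8% of 62 heavy V genes did. For 3 of the 29 the interval lay below 0, where 24.2% of the 62 did, and for 0 it lay above. The other heavy V genes together were shorter by -0.36 amino acids, and the member difference departed from this by -0.0809 (-0.259 to 0.0976), an interval that includes 0. IGHV1-9 stood apart, with 12.2 amino acids (SD 2.22, n = 67) in the iB-μMT library and 13.9 (SD 2.14, n = 112) in the B6 library, the largest difference among these genes at -1.73. IGHV1-64, with the most clonotypes, differed by -0.993. Both genes were picked out after their values were seen.

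Another length difference lay between genes and was the same in both libraries. IGHV1-62-2 and IGHV1-71, also picked out after seeing their values, had the longest mean CDR3 of the 29 genes in each. IGHV1-71 averaged 16 amino acids (SD 2.48, n = 21) in the iB-μMT library and 16.5 (SD 3.08, n = 50) in the B6 library, and IGHV1-62-2 averaged 15.7 (SD 1.39, n = 20) and 16 (SD 2.24, n = 32). All other members together averaged 13.4 and 13.8. The extra length came from the V end: the V gene supplied 15.5 and 15.3 nucleotides of CDR3 in these genes, against 8.45 in the other members of either library. Inserted nucleotides did not run higher in them, at 4.22 and 6.30 against 4.38 and 6.49.

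Their CDR3s can read through part or all of 8 nucleotides that the usual IGHV1 end lacks. The stretch is shown because, where complete, it tells these 2 genes from the rest, with capitals for the V nucleotides beyond the first 9. The line labelled longest common start gives the most frequent first 17 nucleotides, a fixed length that most of these CDR3s did not carry in full.
IGHV1-62-2 and IGHV1-71, longest common start: tgtgcaagaCACGAAGA
IGHV1-71, iB-μMT, IGHJ2, 424 reads: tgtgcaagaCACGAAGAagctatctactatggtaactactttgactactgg
IGHV1-71, B6, IGHJ4, 571 reads: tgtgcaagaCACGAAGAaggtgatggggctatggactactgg
IGHV1-62-2, iB-μMT, IGHJ3, 333 reads: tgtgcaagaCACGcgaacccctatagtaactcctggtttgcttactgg
IGHV1-62-2, B6, IGHJ4, 527 reads: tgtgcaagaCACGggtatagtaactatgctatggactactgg
The last 4 lines are the clonotype of each gene with the most reads in each library. The full stretch opened 17 of the 41 CDR3s of these genes in the iB-μMT library and 35 of 82 in the B6 library, and it opened 0 other member CDR3s in either. The share ratios of IGHV1-62-2 and IGHV1-71 were 0.544 (0.311 to 0.95) and 0.365 (0.22 to 0.608), and their intervals overlap.

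**Figure D4:**
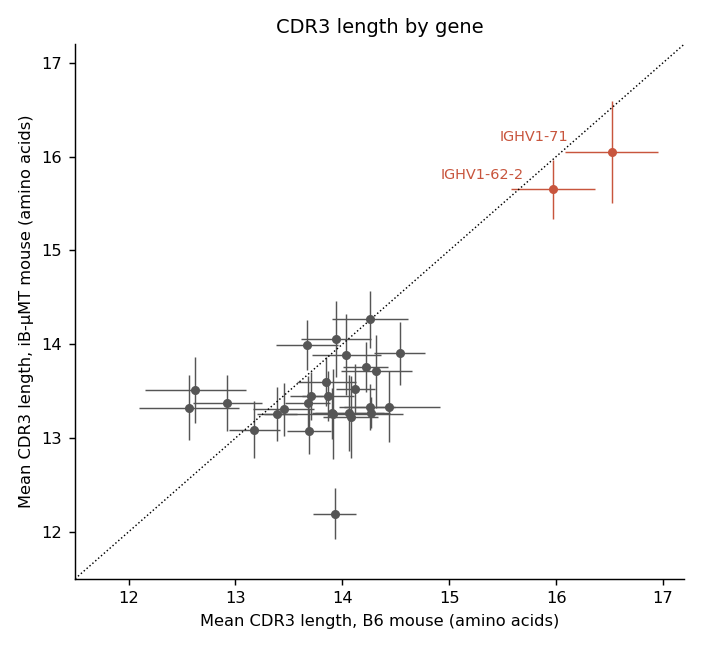
Mean CDR3 length (amino acids) in the B6 library (horizontal axis) and the iB-μMT library (vertical axis) for the 29 IGHV1 genes that reached 20 clonotypes in each, with standard errors over clonotypes and a dotted line of equality. IGHV1-62-2 and IGHV1-71 lie above 15 on both axes, and 23 genes lie below the line.

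The usual start of an IGHV1 CDR3 was shorter. The 9 nucleotides tgtgcaaga, which encode Cys-Ala-Arg, were the most frequent opening in 31 of the 35 genes compared. The exceptions were IGHV1-5 and IGHV1-15 with tgtacaaga, which encodes Cys-Thr-Arg, IGHV1-47 with tgtgcaagg and IGHV1-74 with tgtgcaata, which encodes Cys-Ala-Ile. The opening tgtgcaaga was found in 68.3% of member CDR3s in the iB-μMT library and in 67.4% in the B6 library, a difference whose interval includes 0 (-1.71 to 3.55).

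The IGHV1 genes were joined to different D genes in the 2 libraries, and to J genes in similar proportions. IGHD1-1 (DFL16.1), a D gene far from J, was found in 23.3% of the iB-μMT clonotypes with an assigned D gene and in 34.8% of those of the B6 library, a difference of -11.5 percentage points (-14.1 to -8.78). IGHD4-1 (DQ52), the D gene nearest to J, was found in 18.1% and 9.86%, a difference of 8.22 (6.12 to 10.4). The IGHD2 genes together made up 49.7% and 43.2%, mostly through IGHD2-3 at 3.83 points and IGHD2-8 at 3.02 points higher in the iB-μMT library. IGHD3 and IGHD5 genes were less frequent by 1.64 and 1.48 points. IGHJ1 to IGHJ4 took 14.5%, 35.6%, 22.8% and 27.2% in the iB-μMT library. In the B6 library they took 15.7%, 35.1%, 23.7% and 25.5%, and the interval of each of the 4 differences includes 0. None of these D and J differences was shown to be particular to the members: the departure from the other heavy V genes had an interval that includes 0 for each.

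**Figure D5:**
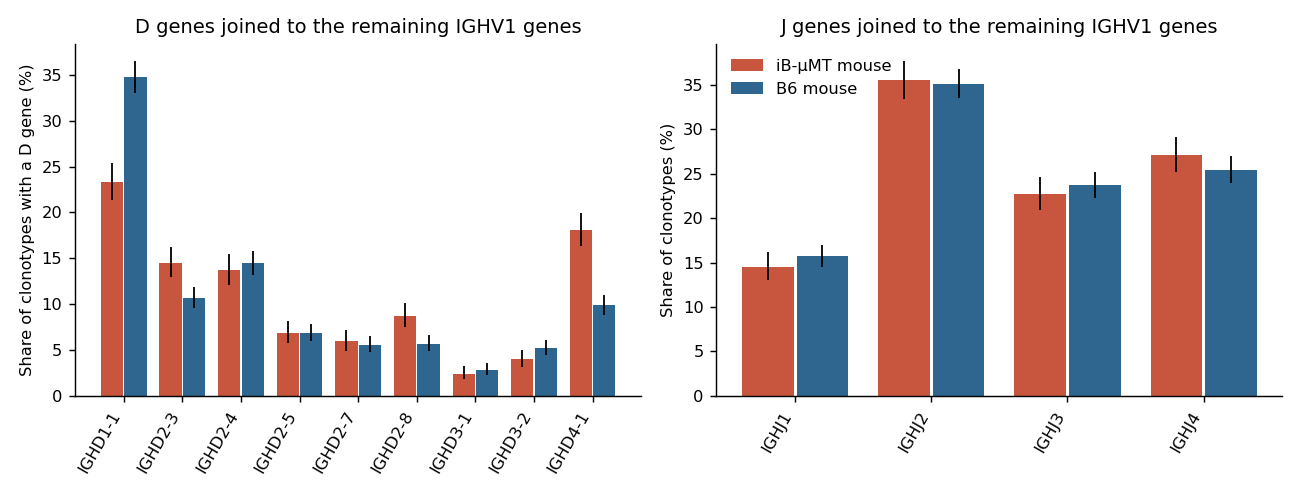
Share of member clonotypes (%) joined to each of 9 D genes (left, of clonotypes with an assigned D gene) and to each of 4 J genes (right), in the iB-μMT and B6 libraries, with 95% Wilson intervals. IGHD1-1 was lower (23.3% against 34.8%) and IGHD4-1 higher (18.1% against 9.86%) in the iB-μMT library, while the J gene bars overlap within their intervals.

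The amino acids of the CDR3 between its conserved ends differed between the libraries too. Averaged over the clonotypes without a stop codon (n = 1908 and 3169), tyrosine made up 22.7% of residues in the iB-μMT library and 19.9% in the B6 library, a difference of 2.82 points (2.28 to 3.37). For the other heavy V genes the tyrosine difference was 2.59 points. Glycine was lower, at 8.88% against 9.91%, as was serine, at 5.42% against 6.34%. For the other heavy V genes the glycine and serine differences were both -1.06 points. Charged residues took 22.9% and 23.6%, a difference of -0.637 (-1.24 to -0.0377), where the other heavy V genes differed by 0.185 (-0.268 to 0.638). These intervals overlap, and the departure of the members from the other V genes was not tested. The residues counted include those encoded by the V end, so the mix of V genes enters these values.

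Clonotypes with a stop codon in CDR3 were fewer in the iB-μMT library, at 21 of 1929 (1.09%) against 63 of 3232 (1.95%), a difference of -0.861 points (-1.52 to -0.151). For the other heavy V genes the difference was -1.91 points, from 32 of 5865 and 87 of 3549 clonotypes, and the members departed from it by 1.05 points (0.187 to 1.90). Most of the member difference coincided with clonotypes that differed at 1 position from another member clonotype with at least 10 times the reads. There were 8 such clonotypes in the iB-μMT library (0.415%) and 174 in the B6 library (5.38%), with a median of 8 reads in the latter, and 29 of the 63 B6 clonotypes with a stop codon were among them. With them merged into their larger neighbours the stop codon difference was -0.123 points, and weighted by reads it was 0.136 points, in the opposite direction. The other heavy V genes showed a like imbalance of such neighbours, at 1.38% and 5.92%.

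Member clonotypes were evenly sized in both libraries. The median was 131 reads in the iB-μMT library and 207 in the B6 library, and the 10 largest held 2.19% and 1.43% of all member reads. The effective number of clonotypes (Shannon entropy of the reads, as an exponential) was 1456 of 1929 and 2392 of 3232. Among the 35 genes compared, the median reads per clonotype were lowest for IGHV1-47 in both libraries, at 23 and 43 (15 and 16 clonotypes), and highest for IGHV1-77 (205, 7 clonotypes) in the iB-μMT library and IGHV1-15 (292) in the B6 library.

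Few rearrangements of these genes, as of other V genes, were found in both libraries. There were 8 clonotypes with the same V gene, J gene and CDR3 nucleotides in both, which is 0.415% of those of the iB-μMT library and 0.248% of those of the B6 library. The other heavy V genes had 26 such clonotypes, 0.443% and 0.733% of theirs. Of the 8 member clonotypes, 6 had 1 read in the iB-μMT library and 107 to 607 reads in the B6 library. Another 1 had 184 reads in the iB-μMT library and 1 in the B6 library. The remaining one, IGHV1-5 with IGHD2-7 and IGHJ3, had 14 and 5 reads. It is printed with the most abundant of the other 7, which is a junction with 11 inserted nucleotides and 607 reads in the B6 library.
IGHV1-5 IGHD2-7 IGHJ3: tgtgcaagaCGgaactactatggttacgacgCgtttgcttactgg
IGHV1-15 IGHD1-1 IGHJ1: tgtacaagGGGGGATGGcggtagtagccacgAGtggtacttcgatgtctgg
Whether reads passed between the libraries was not tested. Without any heavy chain clonotype found in both libraries, the 8 member ones among them, the share ratio and the insertion difference moved by less than their intervals.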

How the data were processed

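The authors amplified heavy chain transcripts by 5′ RACE (SMARTer), sequenced them on a MiSeq with paired reads and assembled clonotypes with MiXCR 3.0.13. bcl2fastq and mm10 are named in the submitters' processing notes. The deposited heavy chain tables give the raw read count of each clonotype, without normalization. Light chain tables were not used here.

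The V gene was the first hit with its allele removed. Junctions were read from the deposited alignment positions. Gene and clonotype shares were compared with Wilson, Newcombe, Katz or normal 95% intervals over clonotypes (Python 3.11.15, scipy 1.17.1, pandas 2.3.3). A gene was compared with at least 20 clonotypes in both libraries together and called at 2-fold. Named genes were the 8 most frequent in each library, the 6 highest and 6 lowest ratios, those seen in 1 library and those most often tied with another V gene, and exceptions are marked. Tied best V hits affected 11 member clonotypes in each library, most often of IGHV1-50, IGHV1-63, IGHV1-15, IGHV1-55 and IGHV1-59. Members, lists and alternatives were chosen with earlier results of these data known. Tested on simulated data for the comparison of gene shares, 15 of 15 genes changed 4-fold were recovered and 2 of 63 unchanged genes passed 2-fold. The changed genes were drawn from the more frequent genes of the B6 library, so recovery of 2-fold changes or of rare genes was not tested. Both simulated libraries were drawn from the B6 V shares, so variation between mice or library preparations was not part of the simulation. The alternatives changed the minimum reads and clonotypes, the fold, the weighting, the handling of near-identical, shared, tied or stop codon clonotypes, the depth and the D length.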

Additional observations from a re-analysis of the deposited data

How the results depend on the processing

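No paired analysis was possible because each group has 1 library. Of 163 values under 13 alternatives, 152 moved by less than their interval or, for counts, by less than 1.5 times; the 205 ratios of named genes all did. Weighted by reads, the share ratio was 0.573, the CDR3 length difference -0.586 amino acids, the difference in clonotypes without insertions 6.87 points, that of IGHJ2 3.21 points, and that of stop codons turned to 0.136 points. With near-identical clonotypes merged, the CDR3 length difference was -0.585 and the stop codon difference -0.123. At a fold of 1.5, 22 member genes were lower. With a minimum of 10 clonotypes 1 member gene, IGHV1-11, was at least 2-fold higher. The share over all heavy V genes was not counted at these settings, so these counts do not set the members apart. With a minimum of 50 clonotypes the rho with locus order was 0.163 over 29 genes. With at least 8 nucleotides of D, the IGHD4 difference was 5.95 points. The causes were not tested. Over all alternatives the share ratio ran from 0.513 to 0.573 and the insertion difference from -2.21 to -2.08 nucleotides. Rare genes are limited by clonotype number.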
